A study of Mus musculus with 8 samples.

Results

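Heat shock and cold-inducible genes were examined in the lacrimal gland (LG) of mice under calorie restriction (CR) and of mice fed ad libitum (AL). The set was chosen by gene symbol and holds 10 of the 24552 genes in the count table, namely the cold-inducible Cirbp and Rbm3, the HSP70 system genes Hspa8, Hspa1a, Hspa1b, Hsph1 and Dnajb1, the HSP90 gene Hsp90aa1, and the mitochondrial chaperonin genes Hspd1 and Hspe1. All 10 passed the filter on low counts, as did 11211 genes in all. The libraries came from exorbital LGs of female C57BL/6J mice at 10 to 11 months of age, 4 fed AL and 4 given 40% less food for 4 months. The restriction was reached gradually. The study kept 2 cohorts on different chows, and the cohort of these libraries is not given in the sources used here, nor is the hour of collection. The paper places late-afternoon feeding of CR mice in its account of cohort 2. There CR mice also ate a chow with more vitamins and micronutrients than that of AL mice. Whether either holds for these libraries is not known. RNA was read near the 3′ ends of transcripts, so a level, given as CPM, that is, counts put on a shared library size through relative log expression (RLE) factors, stands for reads per transcript end and is compared between diets only, not between genes.

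Heat shock proteins are chaperones that bind unfolded proteins and help them to fold or to be removed. HSF1, a transcription factor held inactive by chaperones, binds heat shock elements when unfolded proteins build up and switches on the inducible members. HSPA8 and the mitochondrial chaperonin are also made without such stress. CIRBP and RBM3 are small RNA-binding proteins that rise with mild cooling and fall with heat, and Cirbp transcripts cycle over the day with body temperature. The LG is a secretory gland that folds large amounts of tear protein.

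The stretches before the start sites of 4 of the genes are shown because they hold, or lack, the motifs by which heat and mild cold are known to act. They come from RefSeq on GRCm38.p6, whose table matched 7 of the 10 genes (none for Rbm3, Hspa8 and Hsp90aa1), and each runs 5′ to 3′ over the 250 bases before a start. Capitals mark matches on either strand to the heat shock element dimers GAANNTTC and TTCNNGAA, to the 3-unit heat shock element that joins them, and to the mild cold response element TCCCCGCC. The dimers are parts of the 3-unit element, so their matches overlap. Hspa1a and Hspa1b differ at 3 of these 250 bases.
Cirbp, chr10:80167589-80167838, plus strand: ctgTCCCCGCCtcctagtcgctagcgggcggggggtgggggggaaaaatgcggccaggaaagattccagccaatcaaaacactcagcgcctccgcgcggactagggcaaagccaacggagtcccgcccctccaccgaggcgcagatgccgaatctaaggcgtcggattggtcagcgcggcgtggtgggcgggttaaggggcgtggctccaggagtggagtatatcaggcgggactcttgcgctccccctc
Hspa1a, chr17:34972157-34972406, minus strand: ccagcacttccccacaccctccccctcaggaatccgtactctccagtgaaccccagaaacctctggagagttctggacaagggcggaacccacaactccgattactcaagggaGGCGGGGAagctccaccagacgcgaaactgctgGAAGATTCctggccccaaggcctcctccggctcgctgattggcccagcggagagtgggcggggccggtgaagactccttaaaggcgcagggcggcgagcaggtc
Hspa1b, chr17:34959239-34959488, minus strand: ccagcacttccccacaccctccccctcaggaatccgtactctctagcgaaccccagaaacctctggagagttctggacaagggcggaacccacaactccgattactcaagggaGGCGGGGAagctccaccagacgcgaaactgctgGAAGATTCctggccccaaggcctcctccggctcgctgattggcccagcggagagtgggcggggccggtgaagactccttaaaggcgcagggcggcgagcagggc
Hspe1, chr1:55087898-55088147, plus strand: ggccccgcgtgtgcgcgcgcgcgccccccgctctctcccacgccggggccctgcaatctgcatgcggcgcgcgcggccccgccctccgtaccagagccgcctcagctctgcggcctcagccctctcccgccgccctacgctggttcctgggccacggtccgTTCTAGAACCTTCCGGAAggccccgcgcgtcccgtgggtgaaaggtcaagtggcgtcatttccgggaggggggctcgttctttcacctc

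Searched from 250 bases before to 50 bases after the start, the Cirbp window shown had 1 match to the mild cold response element, 247 bases before the start, and 0 matches to a heat shock element. A second Cirbp window, 80167921 to 80168220 on chromosome 10, had 0 matches to any of the motifs. Hspa1a and Hspa1b each had a GAANNTTC dimer 104 bases and a mild cold response element 137 bases before the start. The Hspe1 window holds 2 overlapping 3-unit elements, 89 and 84 bases before its start, and shares 285 bases with a window of Hspd1, which is transcribed the other way. Hsph1 had a 3-unit element within its first transcribed bases, and Dnajb1 had 0 heat shock element matches in either of its windows and 1 mild cold response element, at base 35 after a start. Over all 32851 promoters in the table, 7.86% held GAANNTTC, 8.52% TTCNNGAA, 0.603% a 3-unit element and 5.38% the mild cold response element. These matches are letters in a window and do not show that a factor bound there.

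Libraries held 12051881 to 22156511 reads counted on genes, so a floor of 3 counts corresponded to 0.152 to 0.231 CPM, which covers counting error only because the reads carry no molecular identifiers. CR replicate 4 stood apart from the other CR libraries, with a chi-square per degree of freedom of 637 to 779 against them, compared with 54.2 to 89.0 among CR replicates 1 to 3. The tissue label was checked against marker lists. Lacrimal markers summed to between 173922 and 195515 CPM in AL and between 78992 and 178297 CPM in CR, with 3 of 10 called lower and 1 higher in CR. Markers of the parotid gland, a salivary gland, summed to between 237 and 23475 CPM in AL and between 17818 and 229648 CPM in CR, and 3 of 5 were called higher, while Prh1 and Prp2 were at 0 in AL replicates 2 and 4. Their mean log2(CPM + 1) was 2.85 to 7.52 in AL and 9.72 to 13.61 in CR, so parotid signal and diet cannot be told apart in these libraries. Immune markers summed to 141 to 462 CPM in AL and 67.0 to 108 CPM in CR, white adipose markers to 7.51 to 18 and 23.4 to 93.9 CPM, and the globins Hba-a1, Hba-a2, Hbb-bs and Hbb-bt were at 0 in all 8 libraries. Smooth muscle and myoepithelium markers summed to 72.3 to 115 CPM in AL and 33.7 to 71.4 CPM in CR. Skeletal muscle markers reached 12.6 CPM in AL and 64.2 CPM in CR. Fibroblast markers summed to 132 to 209 CPM in AL and 117 to 175 CPM in CR. Of these fibroblast genes, 2 of 5 were called lower, beside 0.785% of all genes. In such bulk RNA, fewer cells of a type and less RNA per cell cannot be told apart.

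Among the 10 genes Cirbp rose in CR, and no heat shock gene passed the test in either direction. To be called, a gene needed a fold change of 1.5 or more and a Benjamini-Hochberg adjusted p below 0.05 in the quasi-likelihood F test of edgeR. Both cut-offs are those of the study, which applied them to DESeq2 results. At these cut-offs DESeq2 here called 385 of the 11211 genes higher and 317 lower, and 1 and 0 of the 10. By the edgeR rule 1 of the 10 genes was called higher in CR and 0 were called lower. Of all genes tested, edgeR called 1.20% higher and 0.785% lower. Without adjustment, 1 of the 10 had a p below 0.05, compared with 16.7% of all genes tested. Of the 10 log2 fold changes 5 were above and 5 below 0, and their median was 0.01, as was the median over all genes tested.

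**Figure D1:**
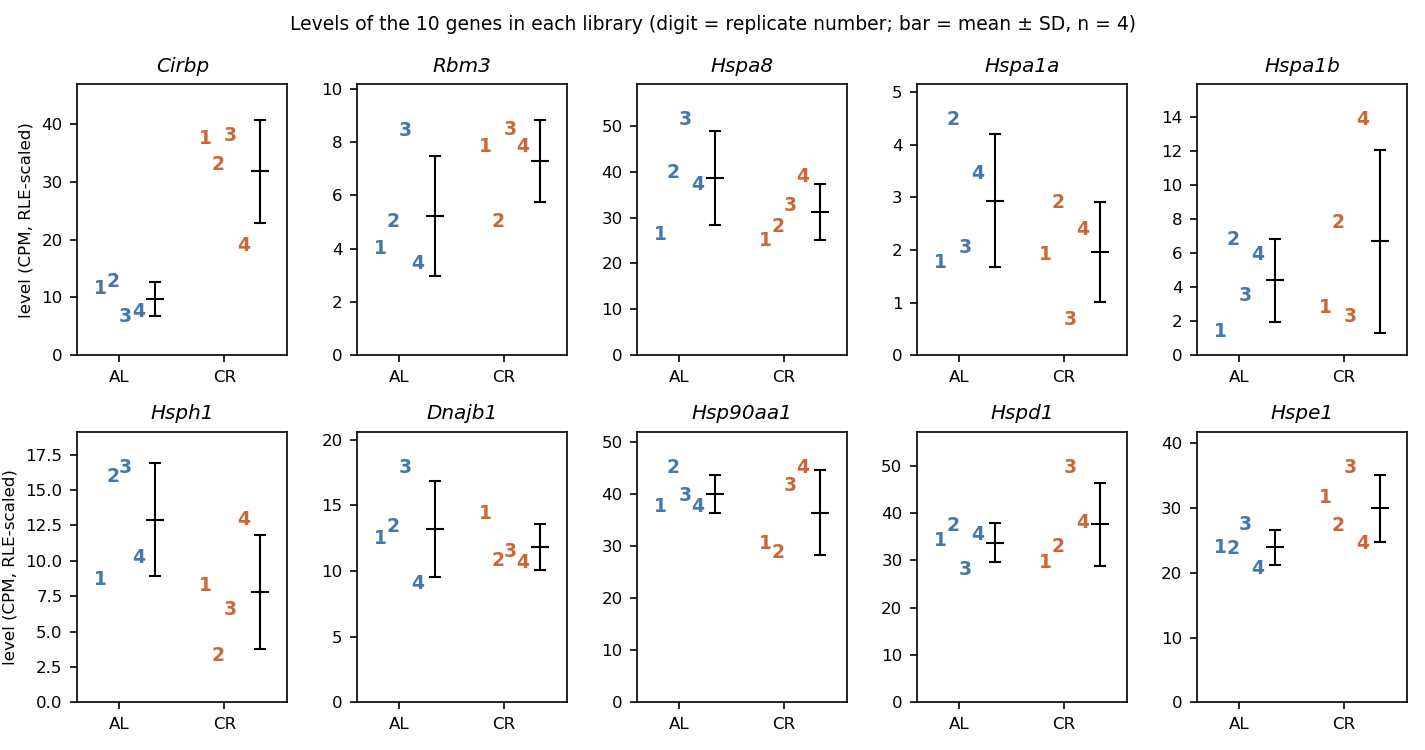
Level of each of the 10 genes in every library, in CPM scaled by RLE factors on a linear axis from 0 (AL blue, CR orange). Digits are replicate numbers and black bars give the mean ± SD of 4 libraries. The CR values of Cirbp, 19 to 38.1 CPM, all lie above its AL values, 6.78 to 12.8 CPM, and in each other panel the diets overlap.

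Cirbp (Gene ID 12696, chr10:80165985-80172786 on GRCm38, plus strand) encodes the cold-inducible RNA-binding protein. Its level was 11.6, 12.8, 6.78 and 7.56 CPM in AL replicates 1 to 4 and 37.6, 33.0, 38.1 and 19 CPM in CR replicates 1 to 4. The AL and CR values did not overlap, as for 4.58% of all genes tested with CR on the higher side, and CR replicate 4 was the lowest of the CR libraries. The mean was 9.66 ± 2.94 CPM in AL and 31.9 ± 8.91 CPM in CR (SD, n = 4 each), a 3.30-fold higher level, and the log2 fold change was 1.72 (standard error 0.27, 95% interval 1.13 to 2.32, edgeR quasi-likelihood adjusted p = 0.00933). Ranked by p, Cirbp was number 42 of the 11211 genes. The exact permutation test of the levels in CPM, two-sided, gave p = 0.0286, the smallest that 4 against 4 allow. When each library was left out in turn, Cirbp was called in 8 of 8 fits, with log2 fold changes from 1.58 (without AL replicate 3) to 1.91 (without CR replicate 4) and adjusted p from 0.000663 to 0.0417.

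Cirbp moved with other signals that differed by diet. Among the CR libraries, replicate 4 had the lowest parotid score, 9.72, and the lowest Cirbp. CR replicate 2 had the highest score, 13.61, and a Cirbp level below those of CR replicates 1 and 3. Parotid signal and diet cannot be told apart in these values. Once the parotid score entered the model, the log2 fold change of Cirbp came to 1.01 with a standard error of 0.54 (edgeR adjusted p = 0.600), and 0 genes of the whole table were called, with 995 at an unadjusted p below 0.05. Clock genes differed as well, with 6 of the 14 tested called higher and 3 lower, beside 1.20% and 0.785% of all genes. Leaving out 1 library at a time gave 5 to 8 higher and 1 to 3 lower, and the parotid covariate gave 0 of either (edgeR). Over all genes, leaving out 1 library gave from 35 of 11350 to 453 of 11401 higher. It gave from 25 of 11353 to 247 of 11401 lower. Dbp, Tef, Per3, Per2, Nr1d2 and Hlf were higher in CR, and Nfil3, Clock and Arntl, which encodes BMAL1, were lower, with log2 fold changes from -4.44 for Arntl to 3.61 for Dbp. The part of clock phase, and of feeding time or body temperature, neither of which was measured in these libraries, in the level of Cirbp was not tested.

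**Figure D2:**
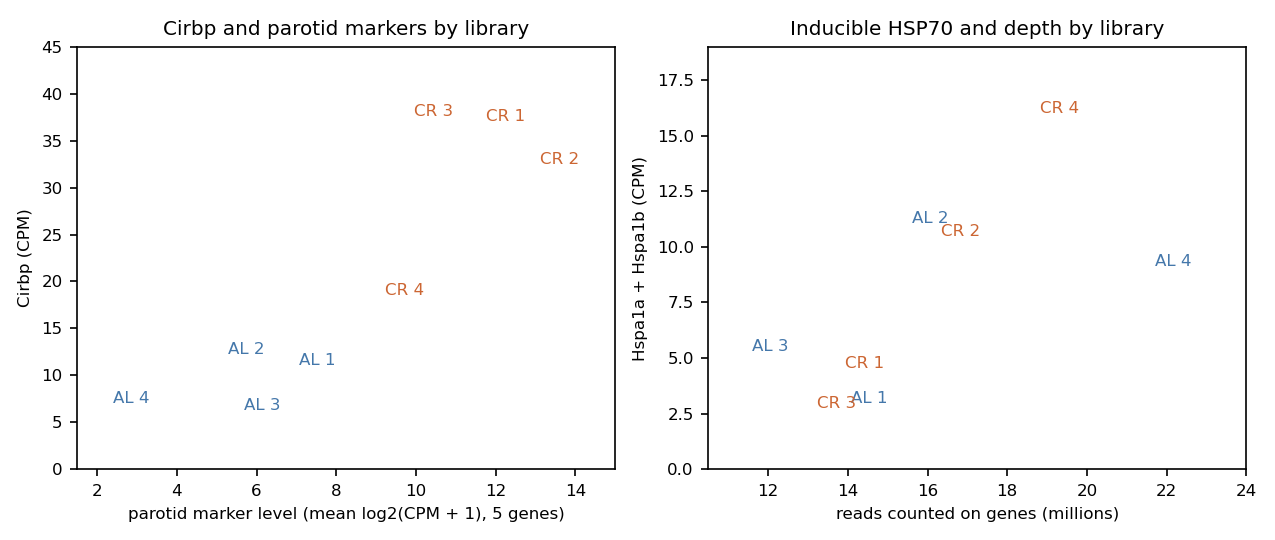
Left, Cirbp in CPM against the mean log2(CPM + 1) of 5 parotid markers, and right, the sum of Hspa1a and Hspa1b in CPM against the reads counted on genes, with each library printed as its name. On the left the diets separate on both axes, and on the right the libraries of both diets are mixed, from 2.97 to 16.2 CPM.

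Rbm3 (Gene ID 19652, chrX:8138975-8145880, minus strand), the other cold-inducible RNA-binding protein, was not called. Its level was 4.01, 5.03, 8.45 and 3.45 CPM in AL replicates 1 to 4 and 7.85, 5.03, 8.48 and 7.83 CPM in CR. AL replicates 1, 2 and 4 were at or below the lowest CR library, but AL replicate 3 was level with the highest. The means were 5.24 ± 2.24 and 7.30 ± 1.54 CPM, and the log2 fold change was 0.48 (standard error 0.31, 95% interval -0.19 to 1.16, adjusted p = 0.483), and leaving out 1 library gave values from 0.32 (without AL replicate 4) to 0.81 (without AL replicate 3). The antisense gene Rbm3os overlaps it, and whether the counting used strand is not given in the sources used here. Because Cirbp passed the test and Rbm3 did not, their ratio within each library was compared, a test chosen after the values were seen, as were 2 other ratios. Cirbp over Rbm3 was 2.88, 2.54, 0.802 and 2.19 in AL and 4.78, 6.55, 4.49 and 2.43 in CR, higher by 1.18 on the log2 scale, and a difference between the genes in their change with diet was not shown (exact permutation test, two-sided, p = 0.0857, adjusted over 3 ratios 0.171). The ratio was higher in CR in 4 of 4 pairs of libraries with the same replicate number, where the exact sign-flip test, two-sided, gave p = 0.125, the smallest that 4 pairs allow.

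The HSP70 system genes did not pass the test. Hspa8 (Gene ID 15481, chr9:40800984-40810087, plus strand) encodes the constitutive HSP70, HSC70, and had 26.2, 39.9, 51.3 and 37.2 CPM in AL and 25.0, 28.1, 32.6 and 38.9 CPM in CR. The diets overlapped over most of their range, and the log2 fold change was -0.31 (standard error 0.22, 95% interval -0.79 to 0.17, adjusted p = 0.531). Of the 75-base windows in the last 600 bases of Hspa8, 84.4% also occur in other annotated genes, such as Gm15459, none of which the table lists, so reads from this end could be placed in more than 1 locus.

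Hspa1a (Gene ID 193740, chr17:34969190-34972156) and Hspa1b (Gene ID 15511, chr17:34956436-34959238), both on the minus strand and 9951 bases apart, encode the heat-inducible HSP70. Hspa1a had 1.77, 4.48, 2.04 and 3.45 CPM in AL and 1.91, 2.90, 0.681 and 2.39 CPM in CR. Hspa1b had 1.39, 6.81, 3.50 and 5.89 CPM in AL and 2.83, 7.82, 2.29 and 13.8 CPM in CR. In both genes and both diets replicates 2 and 4 were the highest, and these were also the most deeply sequenced libraries of each diet, whose part was not tested. The log2 fold change was -0.58 for Hspa1a (standard error 0.47, 95% interval -1.60 to 0.44) and 0.60 for Hspa1b (standard error 0.57, 95% interval -0.64 to 1.84), with adjusted p of 0.601 and 0.668. Without CR replicate 4 the value for Hspa1b was -0.03. The counts behind these values were low, 11 to 73 for Hspa1a and 18 to 249 for Hspa1b, and their last 600 bases share no 75-base window. Gm20481 overlaps Hspa1a on the other strand, so without knowing the strand setting its reads cannot be told from those of Hspa1a, also in the ratio of the pair. Summed over both genes the level was 3.16, 11.3, 5.54 and 9.34 CPM in AL and 4.74, 10.7, 2.97 and 16.2 CPM in CR, a log2 fold change of 0.24 (adjusted p = 0.875). The ratio of Hspa1b to Hspa1a was 0.783 to 1.71 in AL and 1.48 to 5.79 in CR, higher by 1.12 on the log2 scale, with an exact permutation p of 0.114, two-sided, and 0.171 after adjustment. It was also higher in CR in 4 of 4 same-number pairs, by 0.83 to 1.76 on the log2 scale (exact sign-flip p = 0.125).

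Hsph1 (Gene ID 15505, chr5:149614287-149636376, minus strand), an HSP110 that exchanges the nucleotide of HSP70, had the lowest log2 fold change of the 10 genes. It had 8.71, 15.9, 16.6 and 10.2 CPM in AL and 8.28, 3.32, 6.56 and 12.9 CPM in CR. CR replicates 1 to 3 lay below every AL library and CR replicate 4 lay among them. The log2 fold change was -0.73 (standard error 0.36, 95% interval -1.51 to 0.06, adjusted p = 0.344) and ranged from -1.09 without CR replicate 4 to -0.47 without CR replicate 2, with the gene not called in either fit. Dnajb1 (Gene ID 81489, chr8:83608193-83612653, plus strand), the HSP40 that stimulates the ATPase of HSP70, had 12.5, 13.4, 17.9 and 9.03 CPM in AL and 14.4, 10.8, 11.5 and 10.7 CPM in CR. Its log2 fold change was -0.16 (standard error 0.23, 95% interval -0.65 to 0.34, adjusted p = 0.805), and every CR library lay within the AL range.

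Hsp90aa1 (Gene ID 15519, chr12:110690605-110702728, minus strand) encodes the inducible cytosolic HSP90. It had 37.6, 45.3, 39.8 and 37.6 CPM in AL and 30.5, 28.8, 41.7 and 45.1 CPM in CR, where replicates 1 and 2 lay below every AL library and replicates 3 and 4 among them. The log2 fold change was -0.13 (standard error 0.18, 95% interval -0.53 to 0.27, adjusted p = 0.793). Together with Hspd1 it was one of the 2 genes of the set whose 95% interval lay within a 1.5-fold change either way, as for 13% of all genes tested. For Hspa8, Hspa1a, Hspa1b, Hsph1, Dnajb1, Hspe1 and Rbm3 the interval reached beyond a 1.5-fold change, so these libraries do not show whether a change of that size was present.

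The mitochondrial chaperonin genes, HSP60 (Hspd1, Gene ID 15510, chr1:55077835-55088243, minus strand) and its lid HSP10 (Hspe1, Gene ID 15528, chr1:55088132-55091307, plus strand), lie head to head and overlap by 112 bases. Hspd1 had 34.3, 37.4, 28.0 and 35.5 CPM in AL and 29.6, 33.0, 49.7 and 38.0 CPM in CR. CR replicate 3 was the highest library, and the rest of the CR values lay in or near the AL range. The log2 fold change was 0.16 (standard error 0.19, 95% interval -0.26 to 0.57, adjusted p = 0.765). Hspe1 had 23.9, 23.7, 27.4 and 20.8 CPM in AL and 31.6, 27.4, 36.3 and 24.5 CPM in CR. All CR libraries lay above the AL mean of 23.9 ± 2.72 CPM, but the diets overlapped, and the log2 fold change was 0.32 (standard error 0.18, 95% interval -0.06 to 0.71, adjusted p = 0.40). The ratio of Hspe1 to Hspd1 was 0.585 to 0.979 in AL and 0.645 to 1.07 in CR (exact permutation p = 0.429, two-sided and unadjusted). Hspe1 itself was higher in CR in 4 of 4 same-number pairs and the ratio in 3 of 4 (exact sign-flip p = 0.125 and 0.50). Annotated pseudogenes share 11.6% of the 75-base 3′ windows of Hspd1 and 31.6% of those of Hspe1.

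**Figure D3:**
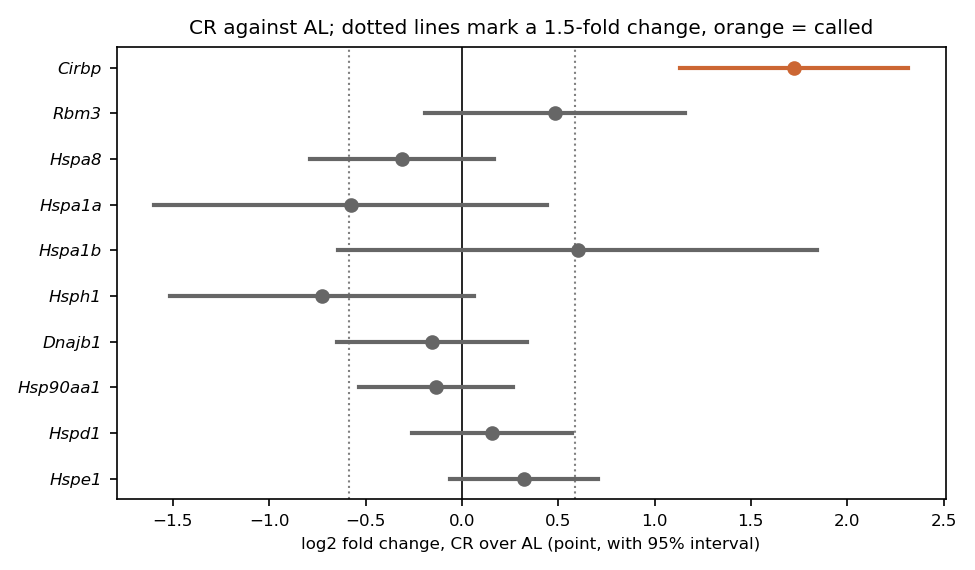
Log2 fold change of each gene, CR over AL, with its 95% interval from edgeR's quasi-likelihood fit (orange where called, dotted lines at a 1.5-fold change). The interval of Cirbp, 1.13 to 2.32, lies beyond the line, and those of the other 9 genes include 0.

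Within a diet, the highest library held between 1.20 and 6.04 times the level of the lowest, depending on the gene. It held 4.91 times the lowest for Hspa1b in AL and 6.04 times in CR, and 4.26 times for Hspa1a and 3.90 times for Hsph1 in CR, compared with 1.20 times for Hsp90aa1 in AL. CR replicate 4 was the highest CR library for 4 of the 8 heat shock genes, Hspa8, Hspa1b, Hsph1 and Hsp90aa1, and the lowest for Cirbp, Dnajb1 and Hspe1. Immediate early genes, which respond within minutes to handling and tissue removal, were read alongside because heat shock genes can do the same. In the main edgeR fit 0 of the 16 tested were called, a count near the shares of the whole table. Fosl2 and Ier3, 12.5% of the 16, had an unadjusted p below 0.05, as did 16.7% of all genes. DESeq2 called 2 of the 16 higher, where it called 3.43% of all genes higher. Without CR replicate 4 edgeR also called 2 higher, beside 453 of all 11401 genes. With the replicate block 1 of the 16 was called higher, beside 3.46% of all genes. In these fits the share of the 16 was above that of all genes. Their part in the spread of the inducible HSP70 genes was not tested. Without CR replicate 4 and AL replicate 1 together, the set still had 1 gene called higher, Cirbp, with a log2 fold change of 2.0, and 0 lower.

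The chaperone network around these genes was followed in 9 lists, written by function. They hold 94 genes, of which 83 could be tested, and the test called 0 higher in CR and 0 lower. Without adjustment 9 had a p below 0.05 and were higher, and 6 were lower, together 18.1% of the 83, while over all genes tested 8.62% were higher and 8.10% lower by this measure. DESeq2 called 1 of them higher, where it called 3.43% of all genes higher. With the replicate number as a block, 2 were called higher, Dnajc19 and Stub1, and 1 lower, Clpx, where 3.46% of all genes were called higher and 2.78% lower, so these shares of the 83 were not above those of the whole table. Of the 83 genes, 41 had a log2 fold change above 0 and 42 below, with a median of -0.03 beside 0.01 over all genes tested. In 6 of them all CR values exceeded all AL values, and in 4 all were below, as for 4.58% and 5.20% of all genes tested.

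**Figure D4:**
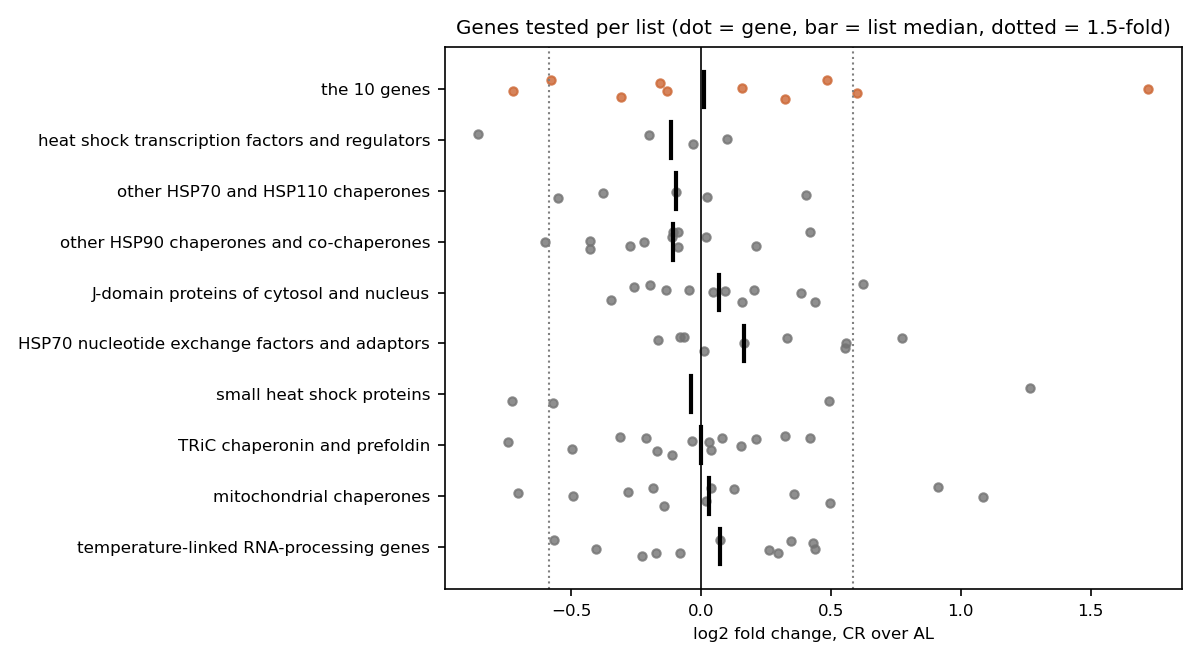
Log2 fold changes, CR over AL, of the 10 genes (orange) and of the tested genes of 9 related lists (grey). Each dot is a gene, the black bar is the median of its list, and dotted lines mark a 1.5-fold change. List medians lie between -0.12 and 0.17, and Cirbp, at 1.72, lies farthest right.

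In each of these lists 0 genes were called in the main edgeR fit, and those with the smallest p are given as values. Among the heat shock transcription factors and their regulators, 4 of 6 were tested, with a median log2 fold change of -0.12. Hsf2 had a log2 fold change of 0.10 (adjusted p = 0.914) and Hsf1, which encodes the main activator of the heat shock response, averaged 1.46 CPM in AL against 1.27 CPM in CR, with a log2 fold change of -0.20. Hsbp1l1, related to the HSF1-binding protein HSBP1, had -0.86 (adjusted p = 0.285). Of the other HSP70 and HSP110 chaperones 5 of 8 were tested, with a median of -0.10, led by Hspa4l at -0.55 (adjusted p = 0.448) and Hspa13 at -0.38 (adjusted p = 0.501). All 12 of the other HSP90 genes and co-chaperones were tested, 9 of them below 0, with a median of -0.11. Fkbp4, an immunophilin that binds HSP90, had 127, 118, 128 and 134 CPM in AL and 103, 72.5, 83.2 and 118 CPM in CR, which just failed to overlap, and a log2 fold change of -0.43 (adjusted p = 0.260). Tomm34 had a log2 fold change of -0.60 (adjusted p = 0.40).

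HSP70 nucleotide exchange factors and adaptors had the highest median, 0.17 over 9 genes, with 6 above 0. Bag1, which releases nucleotide from HSP70, had 34.9, 31.8, 30.3 and 38.8 CPM in AL and 44.6, 47.8, 59.2 and 47.8 CPM in CR, without overlap, and the log2 fold change came to 0.55 with a standard error of 0.16 (adjusted p = 0.104). Stub1, the ubiquitin ligase CHIP, which marks chaperone clients for removal, had 20.6, 15.9, 18 and 16.5 CPM in AL and 42.1, 28.2, 33.1 and 17.9 CPM in CR. Its log2 fold change was 0.77 (adjusted p = 0.117), 0.96 without CR replicate 4 (adjusted p = 0.0109) and 0.72 with the replicate block (adjusted p = 0.0343). J-domain proteins of cytosol and nucleus, the partners that bring clients to HSP70, had a median of 0.07 over 12 genes, with Dnajc5 at 0.38 (adjusted p = 0.240) and Dnajb6 at 0.44 (adjusted p = 0.287), both without overlap.

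Among 12 mitochondrial chaperones and proteases the median was 0.03. Dnajc19, a J-domain protein of the inner membrane, had 7.01, 7.54, 4.81 and 11.2 CPM in AL and 9.97, 17.7, 14.1 and 23.2 CPM in CR, and the log2 fold change was 1.08 (standard error 0.30, edgeR adjusted p = 0.0895). It was called by DESeq2 (1.09, adjusted p = 0.0207) and with the replicate block (1.09, adjusted p = 0.00925). Hspa9, the HSP70 of mitochondria, had 35.1, 33.9, 38.6 and 40.4 CPM in AL and 48.7, 52.1, 55.7 and 52.2 CPM in CR, which did not overlap, with a log2 fold change of 0.49 (adjusted p = 0.109). Clpx, a subunit of the ClpXP protease, had a log2 fold change of -0.71 (adjusted p = 0.205) and -0.72 with the replicate block (adjusted p = 0.0261).

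For the remaining lists the medians were -0.00 for the TRiC chaperonin and prefoldin, 14 genes, and -0.04 for small heat shock proteins, 4 of 9 tested. Pfdn4 had a log2 fold change of -0.75 (adjusted p = 0.243), Cct2 0.42 (adjusted p = 0.352), Hspb6 1.27 (adjusted p = 0.159) and Cryab -0.57 (adjusted p = 0.465). Temperature-linked RNA-processing genes, 11 in number, include splicing regulators of the kind that change with body temperature, and had a median of 0.07. Srsf5, an SR splicing factor, had 60.7, 53.9, 48.1 and 48.0 CPM in AL and 29.5, 36.6, 40.2 and 35.7 CPM in CR, without overlap, and a log2 fold change of -0.57 (adjusted p = 0.0987). Ybx3, a cold shock domain protein, had 0.43 (adjusted p = 0.206).

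The genes whose pattern over the 8 libraries was most like that of Cirbp were sought among 4230 genes with a mean of at least 10 CPM, by the mean absolute difference of log2 CPM after centring each gene on its own mean. They were Car6 (0.26), Tacc2 (0.28), Fam46a (0.29), Palmd (0.30) and Ly6g6d (0.30), whereas the nearest of the other 9 genes, Rbm3, differed by 0.65. Car6 encodes carbonic anhydrase 6, and its mean was 19148 CPM in AL and 61462 CPM in CR. Each of the 5 lay higher in every CR library, a pattern that the choice by likeness to Cirbp carries with it. Hspa8 was most like Ppt1 (0.10), Serpinb6a (0.11), Polr2a (0.12), Rnase4 (0.14) and Gnb1 (0.14). Within the set the closest pairs were Hsp90aa1 with Hspd1 (0.19) and Hspa8 with Hsp90aa1 (0.20).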

How the data were processed

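RNA selected for integrity, from LGs of 4 AL and 4 CR mice, was made into oligo(dT)-primed libraries and read as single 75-base reads. The raw counts per gene deposited by the authors came from cutadapt trimming, STAR alignment to mm10 and HTSeq. Their log2 normalized values were not used. The study counts 4 mice per diet, and p-values measure the spread between these libraries. After 5 repeated symbols were dropped, 11211 of 24552 genes passed filterByExpr. The diets were compared with edgeR 4.0.16 in R 4.3.3 (RLE factors, quasi-likelihood F test, Benjamini-Hochberg adjustment). Dividing a log2 fold change by the square root of F gave its standard error. The pipeline was tested on simulated data. Levels are CPM. Positions are from GENCODE vM21 on GRCm38.

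The genes, lists and tests were chosen with earlier results of these data known. Named are the 10 genes, up to 2 genes with the smallest p per related list, called genes of a list, and the 5 genes most like Cirbp and Hspa8. Hsf1, Clpx, Fosl2 and Ier3 fall outside this rule and were named after their values were seen. Libraries with the same replicate number deviated together (r of 0.208, 0.114, 0.298 and 0.535 for numbers 1 to 4), so the numbers were taken to pair the libraries, from the data and not from the labels. Not every library was closest to its own number, since AL replicate 3 correlated with CR replicate 1 at 0.408, and CR replicate 2 was nearly as close to AL replicate 4 (0.108) as to AL replicate 2. Other settings tried were DESeq2 1.42.0, upper-quartile and TMM factors, other filters, no fold threshold, the replicate block, leaving out each library, the parotid score as a covariate, leaving out the 50 most counted genes, summing Hspa1a and Hspa1b, and, chosen after seeing the data, leaving out CR replicate 4 and AL replicate 1 together, the ratios between genes and their comparison within same-number pairs.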

Additional observations from a re-analysis of the deposited data

How the results depend on the processing

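Under each alternative fitted to the set, other than the parotid score as a covariate, where 0 of the 10 were called, Cirbp was called higher and no other gene of the set in either direction. With that covariate, log2 fold changes of Hspa8, Hsph1 and Hsp90aa1, none of them called, turned to 0.20, 0.22 and 0.31, and those of Hspa1b, Dnajb1 and Hspd1, also not called, were 2.01, -0.68 and 0.54. When each library was left out in turn, values ranged from -0.0345 (without CR replicate 4) to 0.89 for Hspa1b, from -0.31 to 0.0202 (without AL replicate 3) for Dnajb1, from -0.0038 (without CR replicate 3) to 0.26 for Hspd1, from -0.45 (without AL replicate 1) to -0.15 (without AL replicate 3) for Hspa8 and from -0.82 (without CR replicate 2) to -0.29 (without CR replicate 3) for Hspa1a. Hspa1b was at -0.32 without CR replicate 4 and AL replicate 1 together, and Hspa1a summed with Hspa1b was at 0.24, in a fit read for these genes only. The cause of these changes of sign was not tested, and none of these genes was called on either side.

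With the replicate block Cirbp had a log2 fold change of 1.71 (adjusted p = 0.000472) and was the 1 gene of the set called. The block changed the related genes from 0 to 2 higher and from 0 to 1 lower, and all genes from 134 to 388 higher and from 88 to 312 lower. For the 10 genes the block changed no call. Same-number pairs could not call any of the 3 ratios, because the smallest exact sign-flip p that 4 pairs allow is 0.125. Related genes called higher were 1 with DESeq2 (385 of all 11211 genes), 1 with no filter on low counts (271 of 16735), 1 without CR replicate 4 (453 of 11401) and 1 without CR replicate 4 and AL replicate 1 together (343 of 11332). Over all genes, leaving out 1 library at a time gave from 35 (without AL replicate 2) to 453 (without CR replicate 4) called higher and from 25 (without CR replicate 2) to 247 (without CR replicate 4) called lower, so the shares of the whole table moved by over 1.5 times both ways. In the set it gave 1 gene higher in every fit and 0 lower, with 0 to 1 related genes higher. Hspa1a rests on 11 to 73 counts per library and Hspa1b on 18 to 249.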
